A study of Mus musculus with 12 samples.

Results

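Dim cells from lungs regrowing with a dominant-negative fibroblast growth factor (FGF) receptor were compared with dim cells from lungs regrowing without it. The sorted cells were lung fibroblasts of mice that report Pdgfra, the gene of PDGF receptor alpha, by green fluorescent protein, and 2000 cells of a bright or a dim gate were taken per sample. The comparison used 4 of the 12 arrays of the series, the 2 titled dim PNX dnFGFR and the 2 titled dim PNX, chosen by these titles alone. In the dim PNX dnFGFR group the mice had part of the lung removed (partial pneumonectomy, PNX) and expressed a dominant-negative FGFR2. In the dim PNX group the mice had the same operation and no such receptor is named in the labels. The dim SHAM group, 2 arrays from mice with a sham operation, and the 3 bright groups of 2 arrays each are given beside them. All mice carried the reporter, all lungs were taken 5 days after surgery, and the RNA was amplified over 25 cycles. The labels do not give the age, the strain, the promoter or cell type that drives the dominant-negative receptor, the number of animals per sample or the hour of collection. Replicates are called biological, and whether they came from separate animals is not stated, so p-values measure the spread between these samples.

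FGFs are secreted ligands that bind receptor tyrosine kinases, and a receptor that cannot signal blocks its partners when it pairs with them or takes up their ligand. Signalling through the receptors switches on its own inhibitors, the Sprouty proteins and the phosphatase Dusp6, and the transcription factors Etv4 and Etv5, so these genes are commonly read as an index of FGF activity. In the lung, fibroblasts make Fgf7 and Fgf10 for the epithelium, and FGF signals to the fibroblasts themselves are part of building the alveolar walls. After pneumonectomy the remaining lung grows new walls, and according to the study's design text the dominant-negative receptor blocks the activation of myofibroblasts and this regrowth.

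No gene of 11073 passed the threshold between dim PNX dnFGFR and dim PNX cells, an adjusted p below 0.05 by limma with Benjamini-Hochberg adjustment (0, 0.0%). At an unadjusted p below 0.05 there were 863 genes (7.79%), of which 391 (3.53%) were higher and 472 (4.26%) lower in dim PNX dnFGFR cells. At an unadjusted p below 0.01 there were 93 higher (0.84%) and 109 lower (0.984%). Both dim PNX dnFGFR arrays lay above both dim PNX arrays for 1985 genes (17.9%) and below both for 2422 (21.9%), and the difference exceeded 2-fold for 105 genes (0.948%). The gene nearest to the threshold was Spon2, which encodes a secreted matrix protein of the spondin family. Its log2 signal was 8.71 and 8.85 on the dim PNX dnFGFR arrays, against 7.32 and 7.44 on the dim PNX arrays, and 8.40 and 8.68 on the dim SHAM arrays. The dim PNX arrays were the low ones, and the groups did not overlap. The log2 difference was 1.39 ± 0.15 (SE, 2 arrays per group, 95% interval 1.06 to 1.73), or 2.63-fold, with an adjusted p of 0.052 by limma. It passed with the stricter filter (adjusted p = 0.022), with low signals held (0.033) and with a variance trend (0.009), all by limma, while the mean of its probe sets gave 1.05 (adjusted p = 0.48). With each of the 4 arrays left out in turn the difference was 1.33 to 1.46 and the adjusted p 0.16 to 0.49 by limma.

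By correlation of whole profiles the dim PNX dnFGFR and dim PNX arrays were about as alike as arrays of one group. Pearson's r across the genes tested, which are no independent replicates, was 0.971 between the dim PNX dnFGFR arrays, 0.972 between the dim PNX arrays, and 0.965 to 0.972 between arrays of the 2 groups. Against the dim SHAM arrays r was 0.954 to 0.968 for dim PNX dnFGFR and 0.954 to 0.966 for dim PNX. Between the dim SHAM arrays it was 0.968, so r is a coarse measure that differed little among the dim groups. The first principal component of the 6 dim arrays held 31.1% of the variance and placed the dim PNX dnFGFR arrays at 14.7 and 3.0, the dim PNX arrays at 8.0 and 17.4 and the dim SHAM arrays at -30.1 and -13.1. On the second, with 21.6%, the dim PNX dnFGFR arrays (13.8 and 7.3) lay apart from the dim PNX arrays (-26.1 and -2.0). The dim SHAM arrays were at -6.6 and 13.7 there. Precision is limited by 2 arrays per group, with a median residual SD of 0.199 log2, and the array medians were 5.06 to 5.13. In bulk samples, fewer cells of a type and less RNA per cell cannot be told apart.

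Markers of alveolar fibroblasts were bright in the sorted cells, markers of other cells were present too and some differed between single arrays, and Pdgfra went against the names of the gates. Of 21 markers of alveolar fibroblasts, the lipid-rich fibroblasts of the alveolar wall, 19 were tested, and 18 of them had a log2 signal of 9.10 or more on all 6 dim arrays, Aoc3 (4.04 to 4.57) being the exception. Pdgfra itself was at 6.92 and 6.99 on the dim PNX dnFGFR arrays and at 6.66 and 6.97 on the dim PNX arrays, above its 4.84 to 5.54 on the 6 arrays labelled bright. Of 20 markers of alveolar type 2 and club cells, 15 were tested. The summed level of the 18 with a probe set was 12.75 and 12.40 log2 in dim PNX dnFGFR, 13.53 and 12.24 in dim PNX and 13.47 and 12.78 in dim SHAM, and the surfactant gene Sftpc was at 11.58 or more on every dim array. Of 13 mesothelial markers 10 were tested, and the sums over all 13 were 9.22 and 9.47 in dim PNX dnFGFR, 11.14 and 9.37 in dim PNX and 11.47 and 11.37 in dim SHAM, while the defining markers Msln and Wt1 were at or below 3.85 on all dim arrays. Much of the high sums came from Upk1b, at 10.22 on dim PNX replicate 1 and 10.66 and 10.67 in dim SHAM. Upk3b was at 7.35 on dim PNX replicate 1 but at 4.49 and 4.51 in dim SHAM. Of 11 erythrocyte and platelet markers 6 had a probe set and 5 were tested, with sums of 7.92 and 7.73 in dim PNX dnFGFR, 8.10 and 12.09 in dim PNX and 11.63 and 9.84 in dim SHAM. Among the 4 arrays compared, dim PNX replicate 1 was the high one for epithelial and mesothelial genes and dim PNX replicate 2 for hemoglobin (Hba-a1 at 12.02). The part of these cells in the results below was not tested.

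No FGF receptor passed the test between dim PNX dnFGFR and dim PNX cells, and the intervals of 3 of the 5 kept the difference under 1 log2. Fgfr2, the receptor named in the design, had 7.25 and 7.57 on the dim PNX dnFGFR arrays, 8.18 and 7.09 on the dim PNX arrays and 8.45 and 7.69 on the dim SHAM arrays. The dim PNX dnFGFR values lay between the 2 dim PNX values, and the log2 difference was -0.22 (95% interval -1.03 to 0.60). No source used here says whether its probe set also detects the dominant-negative form, so Fgfr2 is no check of the labels. Fgfr4, a receptor that marks alveolar fibroblasts, was level at 11.59 to 11.67 on all 6 dim arrays, with a difference of 0.02 (-0.57 to 0.61). Fgfr1 differed by -0.11 (-0.47 to 0.25) and Fgfr3 by 0.27 (-0.41 to 0.95). The Fgfr3 arrays did not overlap, with 10.86 and 10.89 in dim PNX dnFGFR against 10.51 and 10.70 in dim PNX. The one receptor gene whose interval left out 0 was Fgfrl1, whose product binds FGFs and lacks the kinase domain. Its signal was 6.88 and 6.86 in dim PNX dnFGFR, against 6.18 and 6.01 in dim PNX, and 6.76 and 6.97 in dim SHAM. The groups did not overlap, and the difference of 0.77 (0.42 to 1.13) had an adjusted p of 0.44 by limma. A second probe set of Fgfrl1, with a lower signal, differed by 0.11.

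No ligand gene passed the test either. Of 10 ligand genes 7 were tested, none had an unadjusted p below 0.05 in limma, and the median log2 difference was 0.26, beside -0.02 over all genes tested, and 0.13 with signals below the filter set to it. Fgf7, the epithelial growth factor, was at 9.38 and 9.36 in dim PNX dnFGFR and at 8.98 and 9.24 in dim PNX, a difference of 0.26 (-0.30 to 0.83). Fgf10, which drives epithelial budding, was at 8.98 and 8.83 in dim PNX dnFGFR and at 8.76 and 9.26 in dim PNX, where the groups overlap (-0.10, -0.78 to 0.57). Fgf2 differed by 0.30 (-0.06 to 0.66). Fgf18, made by myofibroblasts, was at 5.09 and 4.90 in dim PNX dnFGFR, against 4.66 and 4.03 in dim PNX. All 4 values lie below the filter of log2 5.101, the median of all signals, so its difference of 0.65 is not shown to lie above background. Fgf1, Fgf22 and Fgf16 differed by 0.44, 0.19 and -0.25, with Fgf16 at 0.00 once low signals were held, and Fgf9 did not pass the filter.

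Of the genes that FGF signalling switches on, none passed the test after adjustment. Of 26 listed symbols of feedback and target genes 21 were tested. At an unadjusted p below 0.05, 2 were lower and 0 higher, beside 4.26% and 3.53% of all genes. The arrays of the groups were apart for 9 lower genes (42.9% of the list, beside 21.9% of all genes) and 3 higher genes (14.3%, beside 17.9%). Flrt3, among the 9, lay below the filter on all 4 arrays and differed by 0.0 with low signals held. The median difference of the list was -0.21, or -0.18 with low signals held. Without dim PNX dnFGFR replicate 2 or dim PNX replicate 1 the count of 2 was 0, and the median was -0.30 to -0.11 over the 4 arrays left out in turn. Spry2, a Sprouty inhibitor of receptor signalling, was at 8.50 and 8.30 in dim PNX dnFGFR, against 8.84 and 8.96 in dim PNX, and 7.83 and 8.39 in dim SHAM, and differed by -0.50 (-0.97 to -0.03, adjusted p = 0.61 by limma). Flrt2, a membrane protein that binds FGF receptors, was at 5.03 and 4.05 in dim PNX dnFGFR, against 6.83 and 5.42 in dim PNX (-1.58, -2.59 to -0.58), and at -1.02 with low signals held. The best known readouts had intervals that include 0. On both arrays Spry4 and Dusp6 were lower in dim PNX dnFGFR, and Spry1 and Etv5 overlapped. Spry1 differed by -0.10 (-0.78 to 0.59), Spry4 by -0.21 (-0.57 to 0.16), Dusp6 by -0.42 (-1.27 to 0.44) and Etv5 by -0.51 (-1.42 to 0.39), and Etv4 did not pass the filter. These intervals leave room for a change of 1 log2 or more in Dusp6 and Etv5 and for less in Spry4.

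**Figure D1:**
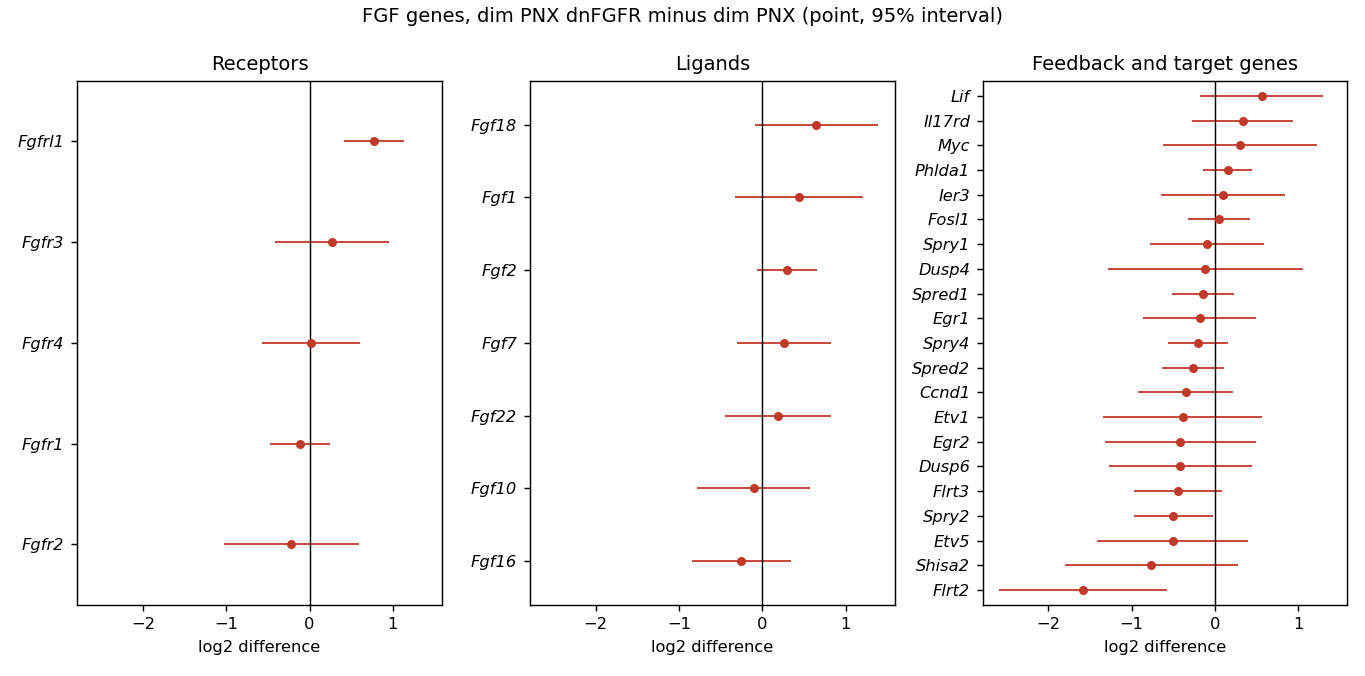
Log2 difference of FGF receptor, ligand and target genes, dim PNX dnFGFR minus dim PNX (points), with limma's 95% interval (bars) and a line at 0. Fgfrl1 lies above 0, Flrt2 and Spry2 below, and the intervals of the other genes include 0.

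The 15 leading genes that were higher in dim PNX dnFGFR cells had log2 differences of 0.82 to 1.51. Lrat, which stores vitamin A as retinyl ester, was at 8.87 and 9.55 in dim PNX dnFGFR, against 7.41 and 7.98 in dim PNX, and 8.33 and 9.45 in dim SHAM. The dim PNX arrays were the low ones, and the difference was 1.51 (0.50 to 2.53); a second probe set gave 1.84. Lrat is 1 of 15 retinoid pathway genes tested, of which it alone had an unadjusted p below 0.05, and their median difference was -0.05. Nnmt, which methylates nicotinamide, was at 8.73 and 8.42 in dim PNX dnFGFR, against 7.45 and 7.11 in dim PNX and 6.20 and 6.71 in dim SHAM, a difference of 1.29 (0.43 to 2.16). Here the dim SHAM arrays were lower still. Haao, an enzyme of tryptophan breakdown, was at 6.45 and 6.31 in dim PNX dnFGFR, against 5.47 and 5.30 in dim PNX (0.99, 0.46 to 1.53). Irf4, a transcription factor best known from lymphocytes, differed by 1.09 (0.50 to 1.69), and Glipr2, a Golgi-associated protein, by 0.99 (0.62 to 1.36).

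Among the others of this group, the splicing factor gene Cdc40 differed by 1.20 (0.69 to 1.71), but its 3 other probe sets differed by 0.09 to 0.66. Slc25a47, a mitochondrial carrier, differed by 1.09, the kinase anchor Akap6 by 0.94, the stathmin Stmn3 by 0.89, the zinc finger gene Zfp507 by 0.89, Ypel4 by 0.88, the Golgi protein gene Tmem87a by 0.86 and the microRNA host transcript Mir100hg by 0.82. The second probe set of Zfp507 had the opposite sign (-0.19). Arntl, the remaining member, is described with the clock genes. For none of these genes was the adjusted p below 0.41 by limma, other than for Spon2.

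The 15 leading genes that were lower in dim PNX dnFGFR cells had log2 differences of -1.73 to -0.99. Errfi1, a feedback inhibitor of the EGF receptor, was at 8.86 and 9.68 in dim PNX dnFGFR, against 11.04 and 10.96 in dim PNX, and 9.26 and 8.44 in dim SHAM. The dim PNX arrays were the high ones, and the difference was -1.73 (-2.45 to -1.01, adjusted p = 0.41 by limma). Golm2, a Golgi membrane protein, was at 6.96 and 7.05 in dim PNX dnFGFR, against 8.25 and 7.91 in dim PNX, and 7.88 and 7.84 in dim SHAM. For Golm2 the dim SHAM arrays stood with dim PNX, and the difference was -1.08 (-1.43 to -0.72, adjusted p = 0.25 by limma), with -0.77 for a second probe set. Dnajb1, a co-chaperone of the heat shock response, was at 9.13 and 9.30 in dim PNX dnFGFR, against 10.17 and 10.26 in dim PNX (-1.0, -1.42 to -0.58).

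Transcription regulators made up part of this group. Id1 and Id4, which block helix-loop-helix factors and respond to bone morphogenetic proteins, differed by -1.12 (-1.87 to -0.36) and -1.07 (-1.63 to -0.52). Id4 was at 6.62 and 6.37 in dim PNX dnFGFR, against 7.49 and 7.64 in dim PNX, and 6.14 and 6.22 in dim SHAM, and its 2 other probe sets differed by -1.65 and -0.72. Mef2c, a factor of muscle and vascular development, differed by -1.03 (-1.57 to -0.49), with -0.49 and -0.11 for other probe sets. Wee1, the kinase that holds back mitosis, was at 4.83 and 5.15 in dim PNX dnFGFR, against 6.33 and 6.25 in dim PNX (-1.30), and at -1.16 with low signals held. The vesicle protein Sytl1 differed by -1.45, the membrane protein Tm4sf1 by -1.20, the calcineurin regulator Rcan2 by -1.15, the glycerol phosphate dehydrogenase Gpd2 by -0.99 and Fam163b by -0.99. Flrt2 is given with the FGF genes, and Ciart and Usp2 with the clock genes.

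**Figure D2:**
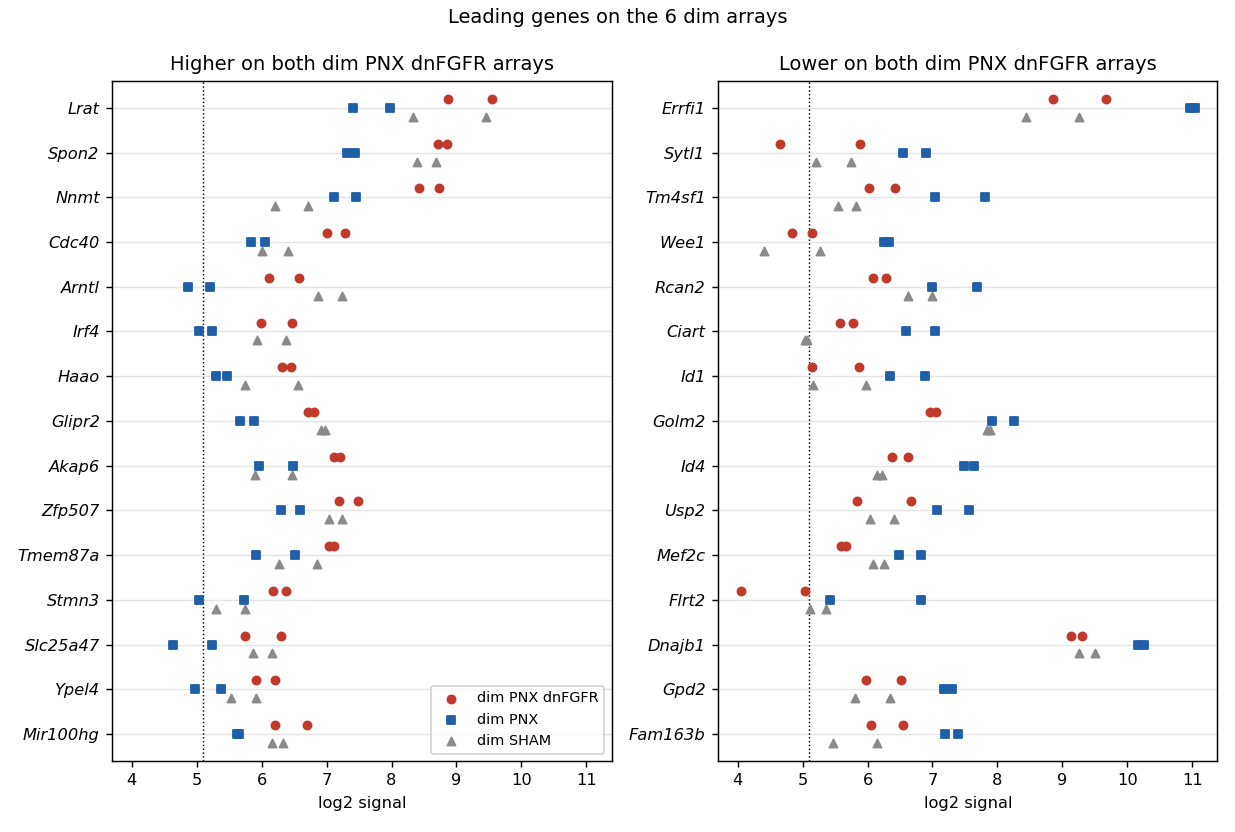
Log2 signal of the 30 leading genes on the 2 dim PNX dnFGFR arrays (circles), the 2 dim PNX arrays (squares) and the 2 dim SHAM arrays (triangles), with the filter of 5.101 as a dotted line. The genes were chosen so that circles and squares do not overlap, and for Golm2 the triangles stand with the squares while for Lrat and Errfi1 they stand with the circles.

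Genes of the circadian clock were the list with the most members at an unadjusted p below 0.05. The clock is a loop in which Arntl (also called Bmal1) with Clock or Npas2 switches on the Per and Cry repressors, Ciart, Bhlhe40, Bhlhe41 and the output factors Dbp, Tef and Hlf, while ROR and REV-ERB receptors set the level of Arntl and Nfil3. Of 21 listed genes 17 were tested: 3 were higher and 5 lower in dim PNX dnFGFR cells at an unadjusted p below 0.05, beside 3.53% and 4.26% of all genes, and none passed after adjustment. Arrays of the 2 groups were apart for 3 higher genes (17.6% of the list, beside 17.9% of all genes) and 8 lower genes (47.1%, beside 21.9%), and the median difference was -0.33. Without dim PNX dnFGFR replicate 1 or dim PNX replicate 1 the 5 lower genes were 2, and the median was -0.53 to -0.16 over the 4 arrays left out in turn. Leaving out dim PNX dnFGFR replicate 1 gave -0.16, and leaving out replicate 2 of either group gave -0.53 and -0.50.

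The 3 higher genes at an unadjusted p below 0.05 were the activators Arntl and Npas2 and the repressor Nfil3. Arntl was at 6.11 and 6.57 in dim PNX dnFGFR, against 4.86 and 5.21 in dim PNX, and 6.86 and 7.23 in dim SHAM. The dim PNX arrays were low and near the filter, and the difference was 1.30 (0.59 to 2.01, adjusted p = 0.49 by limma) or 1.18 with low signals held. Npas2 was at 7.50 and 7.05 in dim PNX dnFGFR, against 6.41 and 6.41 in dim PNX, and 7.07 and 7.48 in dim SHAM (0.86, 0.25 to 1.47). Nfil3 was at 5.90 and 6.42 in dim PNX dnFGFR, against 5.36 and 5.40 in dim PNX, and 6.30 and 6.58 in dim SHAM (0.78, 0.32 to 1.24). The dim PNX dnFGFR and dim SHAM arrays overlapped in both genes, over nearly the whole range for Npas2 and only in part for Nfil3. Clock differed by 0.10 (-0.30 to 0.51).

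The 5 lower genes at an unadjusted p below 0.05 were Ciart, Per3, Usp2, Bhlhe41 and Tef. Ciart, a repressor of Arntl and Clock, was at 5.78 and 5.57 in dim PNX dnFGFR, against 7.04 and 6.59 in dim PNX, and 5.03 and 5.07 in dim SHAM (-1.14, -1.63 to -0.64, adjusted p = 0.42 by limma). Per3 was at 7.80 and 7.69 in dim PNX dnFGFR, against 8.69 and 8.54 in dim PNX, and 7.15 and 6.59 in dim SHAM (-0.87, -1.35 to -0.39). In both genes dim PNX was the high group and dim PNX dnFGFR lay between the other two. Usp2, a ubiquitin protease with a strong daily rhythm, was at 5.83 and 6.67 in dim PNX dnFGFR, against 7.57 and 7.07 in dim PNX, and 6.41 and 6.03 in dim SHAM (-1.07, -1.80 to -0.34). Bhlhe41 differed by -0.70 (-1.35 to -0.06) and Tef by -0.64 (-1.16 to -0.13).

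None of the other clock genes had an unadjusted p below 0.05 in limma. Per1, Per2 and Nr1d2 were still lower on both dim PNX dnFGFR arrays than on both dim PNX arrays, while the arrays of the rest overlapped. Per1 was at 7.57 and 8.51 in dim PNX dnFGFR, against 8.80 and 8.91 in dim PNX (-0.81, -1.66 to 0.04), and Per2 at 6.37 and 7.50 in dim PNX dnFGFR, against 7.67 and 7.57 in dim PNX (-0.69, -1.66 to 0.29). In both, dim PNX dnFGFR replicate 1 was the lower array by about 1 log2. Dbp differed by -0.40, Hlf by -0.33, Nr1d2 by -0.27, Bhlhe40 by -0.16, Rora by -0.15 and Cry2 by 0.15. The hour at which each lung was taken is not in the labels, so time of day and the dominant-negative receptor cannot be told apart for these genes. The comparison of dim PNX with dim SHAM uses the same dim PNX arrays, and its log2 values for Arntl, Ciart and Per3 were -2.01, 1.76 and 1.74.

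**Figure D3:**
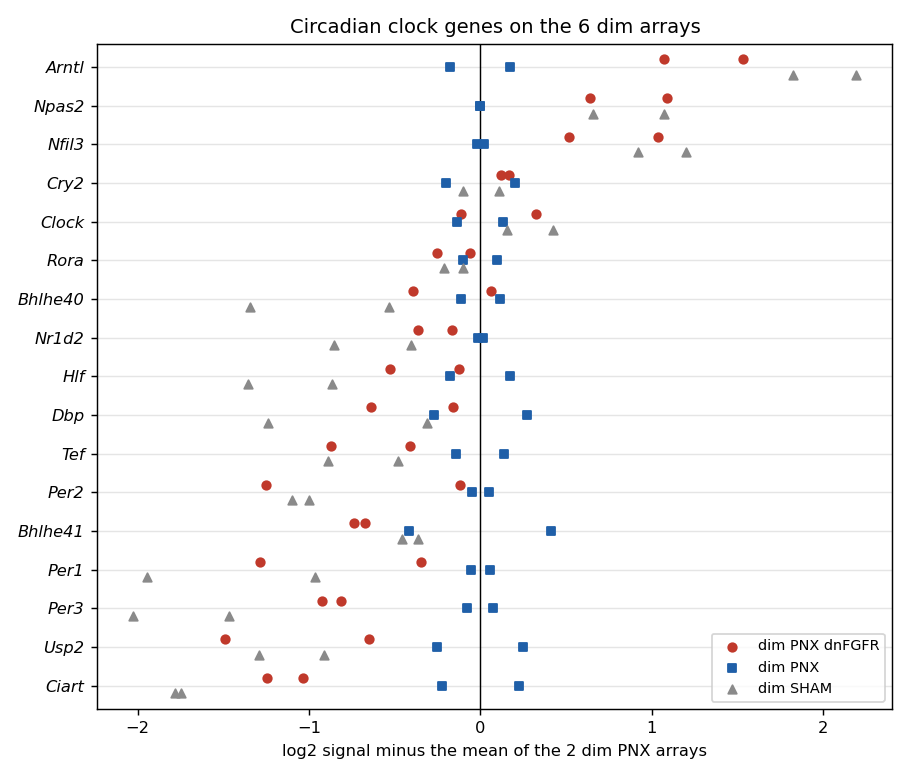
Log2 signal of the 17 clock genes tested on each dim array, minus the mean of the 2 dim PNX arrays, for dim PNX dnFGFR (circles), dim PNX (squares) and dim SHAM (triangles). Arntl, Npas2 and Nfil3 lie to the right of the line on both dim PNX dnFGFR arrays, and Ciart, Usp2 and Per3 to the left.

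The clock reads and writes its genes through short promoter motifs, and these were looked up to show which letters the genes with opposite signs carry. RefSeq promoters (GRCm38.p6, 250 bases before to 50 after the start) were at hand for 15 of the 17 genes. The E-box CACGTG, bound by Arntl with Clock, occurred in 7.15% of all 32851 promoters and in those of 4 clock genes, Ciart, Tef, Bhlhe41 and Per1. The D-box TTATGNAA, bound by Dbp, Tef, Hlf and Nfil3, occurred in 3.38% of all promoters and in those of Per1 and Per3. The ROR element AGTAGGTNA occurred in 0.591% of all promoters and in those of Arntl and Nfil3. Both strands were searched, and the 3 motifs do not overlap. A clock gene was counted if any of its promoters matched, while the shares are of single promoters, so the 2 are unlike measures. A match is a description of the letters, not a shown binding site. Stretches with a match are given for 5 genes, from 1 promoter each, 5′ to 3′ on the gene's strand, with the motif in capitals, for Ciart (chr3:95882247-95882364, minus strand), Tef (chr15:81802526-81802571, plus), Per3 (chr4:151044796-151044890, minus), Arntl (chr7:113207483-113207511, plus) and Nfil3 (chr13:52981040-52981071, minus).
Ciart: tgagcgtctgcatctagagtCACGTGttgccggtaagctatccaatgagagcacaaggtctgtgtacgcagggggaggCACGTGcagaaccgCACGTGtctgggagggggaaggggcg
Tef: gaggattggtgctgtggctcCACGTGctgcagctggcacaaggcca
Per3: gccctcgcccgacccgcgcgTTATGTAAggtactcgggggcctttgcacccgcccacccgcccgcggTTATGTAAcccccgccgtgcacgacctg
Arntl: ggggagcggattggtcggaaAGTAGGTTA
Nfil3: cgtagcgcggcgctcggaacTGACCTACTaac
Ciart, with a difference of -1.14, holds 3 E-boxes, and Per3, at -0.87, holds 2 D-boxes. Arntl and Nfil3, at 1.30 and 0.78, hold the ROR element, which in Nfil3 lies on the opposite strand. The other clock genes with a promoter at hand had no match to any of the motifs, among them the higher gene Npas2 and the lower gene Usp2. Whether motif and sign go together was not tested.

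Genes that respond to glucocorticoids, heat or acute stimulation had single members apart and wide lists. The counts that follow are at an unadjusted p below 0.05, where 3.53% of all genes were higher and 4.26% lower. Of 17 glucocorticoid response genes tested, 1 was higher and 3 lower, with a median of -0.28. That median was 0.02 without dim PNX dnFGFR replicate 1 and -0.72 without dim PNX dnFGFR replicate 2, with 1 and 7 lower genes. Beside Errfi1, Tsc22d3, an anti-inflammatory glucocorticoid target, was at 7.63 and 8.55 in dim PNX dnFGFR, against 9.37 and 9.60 in dim PNX, and 9.12 and 7.77 in dim SHAM (-1.40, -2.45 to -0.34). Of 25 immediate early genes, which respond within minutes to a stimulus, 3 were lower and 0 higher, with Maff at -0.81 and Nr4a1 at -0.88, and a median of -0.19. Of 19 genes of the bone morphogenetic protein and activin pathway, Id1 and Id4 were the 2 lower ones. The median of this list was -0.20, but 0.0 with low signals held. Of 24 heat shock and unfolded protein genes 2 were lower, Dnajb1 and Hsp90aa1 (-0.51, -0.85 to -0.16), with a median of -0.11. Of 15 genes of the amino acid response 3 were lower, among them Psat1, an enzyme of serine synthesis (-1.02, -1.59 to -0.45), and Sesn2 (-0.35), with a median of -0.05. These counts moved with single arrays. The immediate early count was 1 without dim PNX replicate 1, the bone morphogenetic protein count 1 without dim PNX replicate 1 and 4 without dim PNX replicate 2, the heat shock count 1 without dim PNX dnFGFR replicate 1 or dim PNX replicate 2, and the amino acid count 1 without replicate 1 of either group.

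No matrix, contractile or lipid gene passed the test, and the medians of the elastic fibre, collagen, protease, matricellular, contractile and lipid storage lists ran from -0.08 to 0.05. At an unadjusted p below 0.05, 3.53% of all genes were higher and 4.26% lower, and the counts here stand beside these shares. Eln, the elastin of the alveolar wall, was at 12.32 and 12 in dim PNX dnFGFR, against 11.84 and 11.68 in dim PNX, and 11.98 and 12.12 in dim SHAM. The groups did not overlap, and the difference was 0.40 (0.06 to 0.74, adjusted p = 0.57 by limma), with 0.12 for a second probe set. It was the 1 of 19 elastic fibre genes at an unadjusted p below 0.05, and the median of the list was 0.02. Of 25 collagen genes 1 was lower, Col4a6 (-0.68, or -0.27 with low signals held), with a median of 0.05 for the list. Col1a1, the main fibrillar collagen, was at 12.12 and 11.94 in dim PNX dnFGFR and 11.95 and 11.93 in dim PNX. Of 21 proteases and inhibitors 3 were higher and 1 lower, with Mmp11 at 10.24 and 10.11 in dim PNX dnFGFR, against 9.51 and 9.70 in dim PNX (0.57, 0.20 to 0.94). Timp1, an inhibitor of matrix metalloproteinases, was at 9.49 and 8.84 in dim PNX dnFGFR, against 7.75 and 8.59 in dim PNX (0.99, 0.24 to 1.75). Adamts4, which cleaves proteoglycans, differed by 1.83, or 0.72 with low signals held, and the lower gene was Adamts1 (-0.67, -1.28 to -0.05). Among matricellular genes Ccn2, a target of stretch and TGF-beta, differed by -0.85 (-1.66 to -0.03). Without dim PNX replicate 1 no protease gene was among the higher ones, and without dim PNX dnFGFR replicate 1 no elastic fibre gene was.

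None of the 15 contractile genes tested had an unadjusted p below 0.05, and their median was -0.08. Acta2, the actin of myofibroblasts, was at 7.21 and 7.41 in dim PNX dnFGFR, 7.34 and 7.55 in dim PNX and 6.89 and 6.53 in dim SHAM, so that the dim PNX dnFGFR and dim PNX arrays overlap (-0.13, -1.14 to 0.87). A second, weaker probe set of Acta2 differed by 1.01. Plin2, the coat protein of lipid droplets, differed by 0.13 (-0.35 to 0.60), and none of 18 lipid storage genes was at an unadjusted p below 0.05. None of the 19 alveolar fibroblast markers was either, with a median of 0.10, and Tcf21, a factor of lipid-rich fibroblasts, differed by -0.28 (-0.95 to 0.39).

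Mitosis genes were mostly near or below the filter in dim cells, while several S phase genes lay above it. Among the latter, Pcna had a mean of 7.85 in dim PNX dnFGFR and 8.41 in dim PNX, and Tyms 7.31 in both. Mki67, the proliferation marker, was at 4.46 and 5.28 in dim PNX dnFGFR, against 4.62 and 3.40 in dim PNX, and its difference with low signals held was 0.09. Of 22 mitosis genes tested 1 was higher, Aurka (1.04, 0.28 to 1.80), and of 23 S phase genes Rfc4 was higher (0.75) and Rfc3 lower (-0.84, or -0.51 with low signals held), at an unadjusted p below 0.05. Over all genes 3.53% were higher and 4.26% lower at that level, near these shares. The medians of the mitosis and S phase lists were 0.09 and -0.18, or 0.0 and -0.07 with low signals held. Without dim PNX dnFGFR replicate 2 or dim PNX replicate 1 both counts of higher genes were 0.

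Of 19 interferon response genes tested, 9 were higher on both dim PNX dnFGFR arrays (47.4%, beside 17.9% of all genes) and 0 lower (beside 21.9%), with a median of 0.33 and differences of 0.03 to 1.40. Gbp2, a guanylate-binding protein, was the 1 gene at an unadjusted p below 0.05 (3.53% of all genes were higher at that level), at 7.44 and 7.16 in dim PNX dnFGFR, against 6.28 and 6.92 in dim PNX (0.70, 0.15 to 1.25), and Ifit2 differed by 0.40. The median was 0.10 without dim PNX dnFGFR replicate 1 and 0.47 without dim PNX dnFGFR replicate 2, with 0 and 6 genes at an unadjusted p below 0.05. Neutrophil and mast cell markers had a median of 0.85 (0.65 with low signals held) over the 7 tested of 14, with Cpa3, a mast cell protease, at 5.49 and 5.60 in dim PNX dnFGFR, against 4.34 and 4.73 in dim PNX. Both dim PNX values lie below the filter, and the difference of 1.01 was 0.44 with low signals held. The summed level of the 13 with a probe set was 9.21 and 8.88 in dim PNX dnFGFR, 8.82 and 7.81 in dim PNX and 9.89 and 11.19 in dim SHAM, and the median was 0.27 without dim PNX replicate 2. The part of these cells, and of macrophages and dendritic cells, in the interferon values was not tested.

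**Figure D4:**
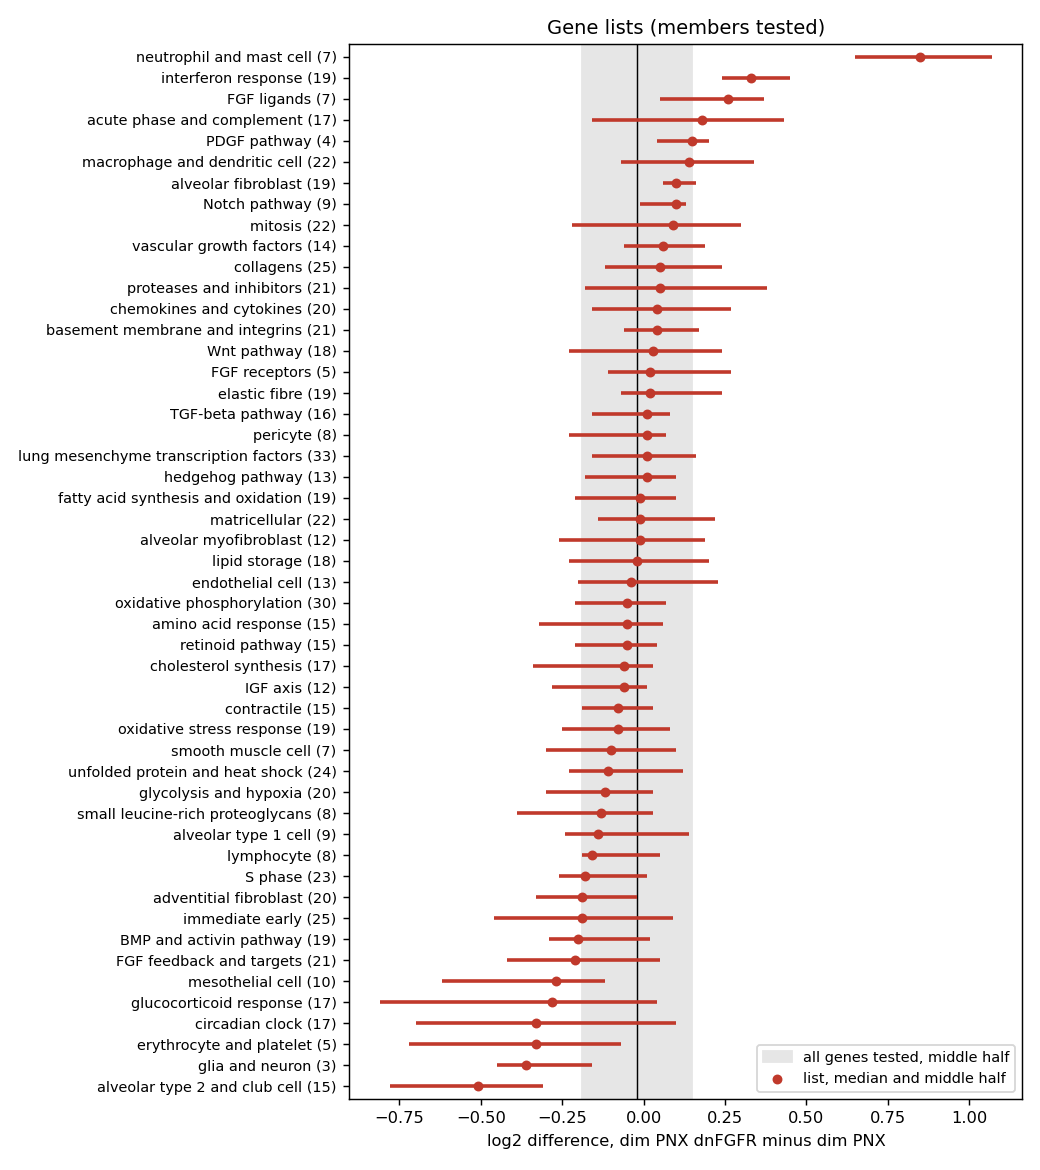
Median log2 difference, dim PNX dnFGFR minus dim PNX, of the tested members of each gene list (points) with the quartiles (bars), over the quartiles of all genes tested (grey) and their median of -0.02 (line). Medians run from 0.85 for neutrophil and mast cell markers to -0.51 for alveolar type 2 and club cell markers, and the clock list is at -0.33.

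Whether dim cells responded unlike bright cells was tested as the difference of the 2 effects. No gene passed at an adjusted p below 0.05 by limma (0, 0.0%), and 909 genes (8.21%) had an unadjusted p below 0.05. Between bright PNX dnFGFR and bright PNX cells 1 gene passed (0.00903%), Stmn2, and 1390 (12.6%) had an unadjusted p below 0.05, 615 (5.55%) higher and 775 (7.0%) lower. Of the 6 leading differences of effects, 4 concerned genes that were nearly level in dim cells. Stmn2, a neuronal microtubule regulator, was at 5.14 and 5.33 in dim PNX dnFGFR and 5.58 and 5.23 in dim PNX, but at 7.73 and 7.49 in bright PNX dnFGFR, against 5.59 and 4.99 in bright PNX. Fgfr4, level in dim cells, was at 6.59 and 5.84 in bright PNX dnFGFR, against 7.73 and 8.36 in bright PNX, so that the effects differed by 1.85 (adjusted p = 0.45 by limma). Apol9a, a gene induced by interferon, and Fam189a2 also differed more in bright cells, by 2.16 and -1.58, against -0.21 and 0.24 in dim cells.

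The genes leading in dim cells did not behave alike in bright cells. Spon2 was at 9.77 and 9.70 in bright PNX dnFGFR, against 9.58 and 9.63 in bright PNX, a difference of 0.13 beside 1.39 in dim cells (difference of effects 1.26, adjusted p = 0.38 by limma). Haao had opposite signs, 0.99 in dim and -0.73 in bright cells, and Cldn10, a tight junction gene near background in dim cells, -1.39 in dim and 2.15 in bright cells. Errfi1 was lower in both, with -1.73 in dim and -1.42 in bright cells, and so were Id4 (-1.07 and -0.95), Golm2 (-1.08 and -0.77) and Fam163b (-0.99 and -1.33). Of the 15 leading genes that were higher in dim cells 11 had the same sign in bright cells, and of the 15 lower ones 12 did, beside 53.4% of all genes tested.

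The clock genes mostly had the same sign in both gates. Of the 17 tested, 16 had the same sign in bright cells (94.1%, beside 53.4% of all genes tested), Cry2 being the exception. In bright cells 1 was higher and 11 lower at an unadjusted p below 0.05, beside 5.55% and 7.0% of all genes. The median difference of the clock genes was -0.33 in dim and -0.66 in bright cells. For the difference of effects 1 gene, Nr1d2, had an unadjusted p below 0.05, beside 8.21% of all genes. Nfil3 was at 8.48 and 8.62 in bright PNX dnFGFR, against 7.41 and 6.98 in bright PNX, and Per3 at 7.30 and 6.99 in bright PNX dnFGFR, against 8.28 and 8.30 in bright PNX. Bright and dim cells of a condition may come from the same animals, so the gates are not independent measures of the animals.

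**Figure D5:**
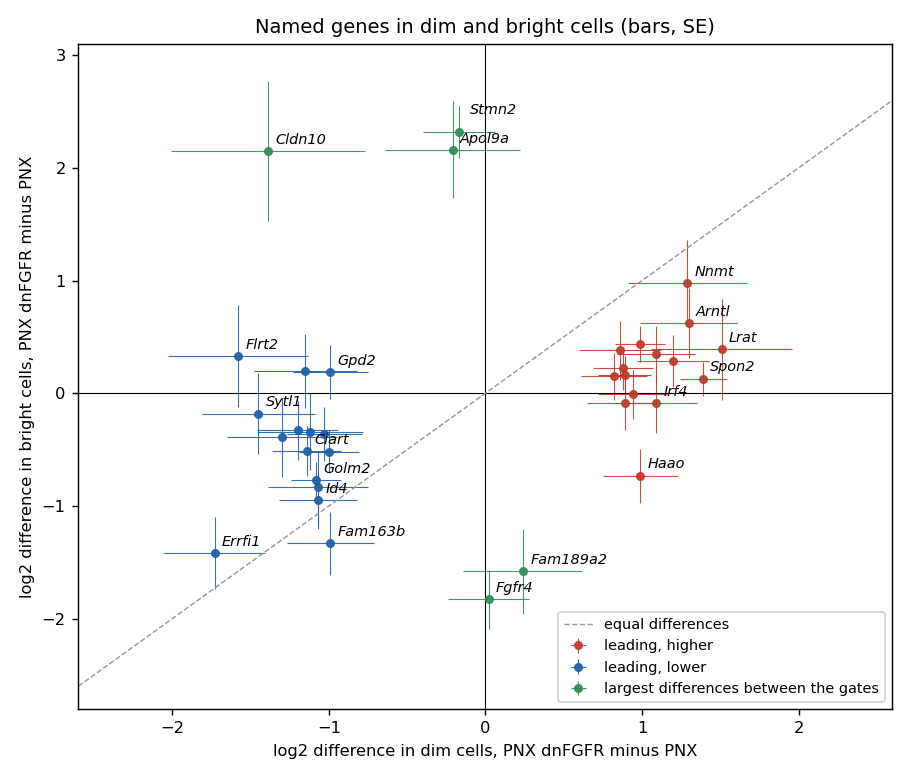
Log2 difference, PNX dnFGFR minus PNX, in dim cells (x axis) and in bright cells (y axis) for the 30 leading genes and the genes with the largest differences of effects, with SE bars and a dashed line of equal differences. Errfi1, Id4 and Fam163b lie near the dashed line, Spon2 near the x axis, and Stmn2, Apol9a, Fgfr4 and Fam189a2 near the y axis.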

How the data were processed

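The deposited values were log2 signals of Affymetrix mouse arrays, made by the authors with RMA per the submitters' processing notes; no source used here gives the version or settings. They ran from 1.5 to 13.05, with 0 missing values, and were used as deposited. Of 45141 probe sets, 104 controls, 551 with several genes and 15588 without a gene were left out, and each of 17097 genes was represented by its brightest probe set on average over the 12 arrays. A gene was tested if it exceeded log2 5.101 on at least 2 arrays, which kept 11073 and left 6024 below the filter. All 12 arrays entered one limma 3.58.1 fit in R 4.3.3, with a mean for each group, with Benjamini-Hochberg adjustment over all genes and 6 residual degrees of freedom, and was tested on simulated data. "Held" means that signals below the filter were set to it. Named genes are the 15 largest differences each way at an unadjusted p below 0.01 whose arrays do not overlap, leaving out predicted genes and ranking on held values, the 3 largest each way for the difference of effects, from each list at most 2 members of smallest p, and a fixed set of FGF, matrix and marker genes. Every receptor, ligand and clock gene tested is also given; the remaining names were chosen after their values were seen. The members, lists and motifs were chosen with earlier results of these data known. Promoters are from RefSeq, GRCm38.p6. Settings tried instead were a stricter filter (log2 6.762) or none, a second quantile normalization, median centring, averaged probe sets, a variance trend, fewer arrays in the fit, a replicate block, a random block, held signals and each array left out in turn. Same-numbered dim PNX dnFGFR and dim PNX arrays did not deviate together (r = -0.003), so the numbers were not taken to pair them. Over other pairs of groups this r ran from -0.185 (dim PNX with bright PNX dnFGFR) to 0.347 (bright PNX dnFGFR with bright SHAM). It was 0.168 for dim PNX with dim SHAM.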

Additional observations from a re-analysis of the deposited data

How the results depend on the processing

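The count of 0 genes at an adjusted p below 0.05 between dim PNX dnFGFR and dim PNX was 1, Spon2, with the stricter filter, with held signals and with a variance trend, and ran from 0 to 1 with single arrays left out (1, Mpo, without dim PNX dnFGFR replicate 2); it was 0 under the other alternatives, among them the replicate block, which gave 0 genes and 870 at an unadjusted p below 0.05. For the difference between dim and bright cells the count of 0 was 1 with held signals (Trim9) and ran from 0 to 50 with single arrays left out, 50 without bright PNX replicate 1 and 1 (Frem1) without bright PNX dnFGFR replicate 1. The 863 genes at an unadjusted p below 0.05 were 572 with the stricter filter, which tests fewer genes, and the 909 were 1626 and 599 without bright PNX replicates 1 and 2. None of the 30 leading genes changed sign in 441 values. Of the 94 genes tested and named, 17 changed sign in 20 of 1392 values. These were Acta2 (0.44) and Fgfr1 (0.02) with averaged probe sets, Fgf16 (0.00) with held signals, and 14 genes with single arrays left out, whose differences ran as follows: Apol9a -0.53 to 0.11, Bhlhe40 -0.40 to 0.07, Clock -0.11 to 0.32, Col1a1 -0.00 to 0.18, Cry2 -0.05 to 0.35, Fam189a2 -0.03 to 0.51, Fgf10 -0.35 to 0.15, Fgfr2 -0.76 to 0.33, Fgfr4 -0.02 to 0.06, Pdgfra -0.01 to 0.29, Plin2 -0.14 to 0.40, Serpina3n -0.10 to 0.31, Spry1 -0.24 to 0.04 and Stmn2 -0.34 to 0.01. The cause was not tested. Signals near the filter carry little information, and 2 arrays per group limit the precision.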

Other observations

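Serpina3n, a secreted protease inhibitor of the acute phase, was high in both groups of pneumonectomy. Its signal was 11.61 and 11.23 in dim PNX dnFGFR, 11.11 and 11.52 in dim PNX and 7.92 and 8.06 in dim SHAM, so the dim PNX dnFGFR and dim PNX arrays overlap (0.10, 95% interval -0.37 to 0.57).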
